A study of Mus musculus with 10 samples.

Results

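The replication-dependent histone genes encode the H1, H2A, H2B, H3 and H4 proteins that package newly made DNA. They were examined in hematopoietic stem cells (HSCs) of 5 AHR-KO mice, which carry an Ahr knockout in every cell type, and of 5 WT mice, with 1 Affymetrix Mouse Gene 2.0 ST array for each sample. All mice were of the C57BL/6J strain and aged 18 months. Cells of the SLAM+ phenotype were sorted from lineage-negative marrow, and their RNA was amplified and labeled with biotin. The study's methods name the Ahr tm3.1Bra allele for AHR-KO mice, and the study calls these mice global knockouts. A difference in sorted cells can therefore not be told apart from an effect of other tissues of the animal. The labels do not say which animals shared a litter, a sort or an amplification, so that p-values measure only the spread between these samples. The question was whether transcripts of these genes differed between AHR-KO and WT HSCs and how much they varied between mice.

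Members were chosen by their older symbols, which start with Hist1h, Hist2h, Hist3h or Hist4h. The platform annotation now uses newer symbols, so that 0 of its symbols start that way, and the older ones were looked up among the synonyms of a GRCm38.p6 gene table. That table held 70 such genes. Of these, 30 had a probe set that names no other gene and are the histone genes measured here, out of 22184 genes in all. Another 39 were represented only by probe sets shared between several histone genes, and the pseudogene H2ac14 had neither. By type, 5 of 6 H1 genes, 8 of 20 H2A genes, 9 of 19 H2B genes, 0 of 12 H3 genes and 8 of 13 H4 genes had a probe set of their own. Of the 30 genes, 22 lie in the Hist1 cluster on chromosome 13, 5 in the Hist2 cluster on chromosome 3, 2 in the Hist3 cluster on chromosome 11 and 1 in the Hist4 locus on chromosome 6, and 2 of them, H2af-ps2 and H2bu1-ps, are annotated as pseudogenes. H3 could be described only through 12 shared probe sets. Coding sequences of most genes within H2A, H2B, H3 or H4 are closely similar, and a probe set annotated to 1 gene may also bind transcripts of its relatives.

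Transcription of these genes is coupled to S phase, when NPAT, activated by cyclin E and CDK2, drives them from nuclear histone locus bodies. Their mRNAs have no introns and end in a conserved stem-loop in place of a poly(A) tail. SLBP binds that stem-loop, the U7 snRNP with LSM11 and FLASH recruits the cleavage complex, and the mRNAs are degraded through the LSM1 ring and UPF1 when DNA synthesis stops. Most HSCs of an adult mouse are quiescent, and a sorted fraction contains cycling cells in some proportion. In such bulk RNA, fewer cells in S phase and less histone RNA per S-phase cell cannot be told apart.

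The promoters of the family carry elements that differ by histone type, and 4 of them are shown because they belong to genes whose values are described below. Each line gives the 150 bases upstream of the annotated start from RefSeq (GRCm38.p6), 5′ to 3′ on the gene's own strand, and the capitals mark matches on either strand to AAACACA (the H1 AC box), ATTTGCAT (the octamer), CCAAT (the CCAAT box), GGTCCG (the core of the H4 element) and TATAAA (the TATA box). H1f5 is at chr13:21780626-21780775 on the minus strand, H2bc3 at chr13:23746584-23746733 on the plus strand, H4c12 at chr13:21750554-21750703 on the minus strand and H4c17 at chr13:21811596-21811745 on the plus strand.
H1f5: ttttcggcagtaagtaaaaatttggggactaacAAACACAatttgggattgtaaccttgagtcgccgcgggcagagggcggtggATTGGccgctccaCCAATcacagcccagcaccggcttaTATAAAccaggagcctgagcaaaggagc
H2bc3: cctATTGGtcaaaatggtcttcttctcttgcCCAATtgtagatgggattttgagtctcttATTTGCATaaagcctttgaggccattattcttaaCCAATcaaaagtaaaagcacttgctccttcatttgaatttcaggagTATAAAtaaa
H4c12: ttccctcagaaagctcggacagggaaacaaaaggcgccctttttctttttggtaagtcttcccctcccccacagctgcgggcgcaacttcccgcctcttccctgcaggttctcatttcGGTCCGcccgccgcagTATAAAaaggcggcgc
H4c17: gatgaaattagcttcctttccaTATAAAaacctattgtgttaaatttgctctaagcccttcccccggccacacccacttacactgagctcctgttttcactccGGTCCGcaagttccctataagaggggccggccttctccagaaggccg
In windows of 300 bases (250 before the start and 50 after), which were found for 62 genes of the family and 26 of the 30 measured genes, AAACACA was in 5 of 6 H1 windows, against 7.18% of all 32851 windows. ATTTGCAT was in 7 of 18 H2A and 6 of 16 H2B windows and in 0 of the H1, H3 and H4 windows, against 1.74% of all windows. GGTCCG was in 11 of 12 H4 windows, against 8.25%. CCAAT was in each H1, H2A, H2B and H3 window but in only 3 of 12 H4 windows, against 37.4%. No 2 of these motifs overlap in the letters shown. A match describes the letters only.

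Across all 22184 genes, 0 passed an adjusted p of 0.05 (limma with Benjamini-Hochberg adjustment, smallest adjusted p 0.998), 830 had an unadjusted p under 0.05, and 116 passed the threshold named in the study's methods, 1.5-fold or more in size together with p under 0.05 before adjustment, 40 of them higher and 76 lower in AHR-KO. This split rested on single arrays, being 79 higher and 78 lower without WT 1 and 21 higher and 78 lower without WT 5. Ahr itself averaged 5.97 ± 0.52 in AHR-KO arrays and 5.74 ± 0.74 in WT arrays (SD, n = 5 each) on the log2(signal + 16) scale, which is used throughout. This is a log2 fold change, AHR-KO over WT, of 0.23 (SE 0.34), and as it is not known which exons the probe set covers, it does not check the genotype. Of 12 HSC markers measured, 11 were above the median level of all genes, and their score, the mean log2 deviation of a list from its means over the 10 arrays, ran from -0.67 to 0.36 in AHR-KO arrays and from -0.16 to 0.51 in WT arrays. Scores of 13 neutrophil genes spanned -1.55 to 1.84 in AHR-KO arrays and -1.11 to 0.70 in WT arrays. Intensities of different probe sets depend on their probes. The level of a gene is used below only to set it above or below the median level of all genes, and is not read as the abundance of its transcript.

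None of the 30 histone genes passed the study threshold in either direction, where 0.523% of all genes did (0.18% higher and 0.343% lower in AHR-KO). With the fold taken from linear means H1f6 passed it, and with a pseudocount of 1 in place of 16 both H1f6 and H2af-ps2 did. AHR-KO had the lower mean for 24 of the 30 (80.0%), against 48.9% of all genes. The median log2 fold change of the 30 was -0.13, with a range of -1.05 to 0.18, and that of all genes was 0.004. Among the 19 that lay above the median level of all genes (5.67), 17 were lower in AHR-KO with a median of -0.15, where 47.9% of all genes above that level were lower. Of these 19, 13 were lower without AHR-KO 5 (median -0.09) and 13 without WT 1 (median -0.12). Over all 30 genes the lower count was 20 without AHR-KO 5, with a median of -0.08, and 21 without WT 1, with a median of -0.08. Unadjusted p was under 0.05 for 2 of the 30, both lower, against 1.93% of all genes. Values of histone genes on an array are not independent of each other.

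**Figure D1:**
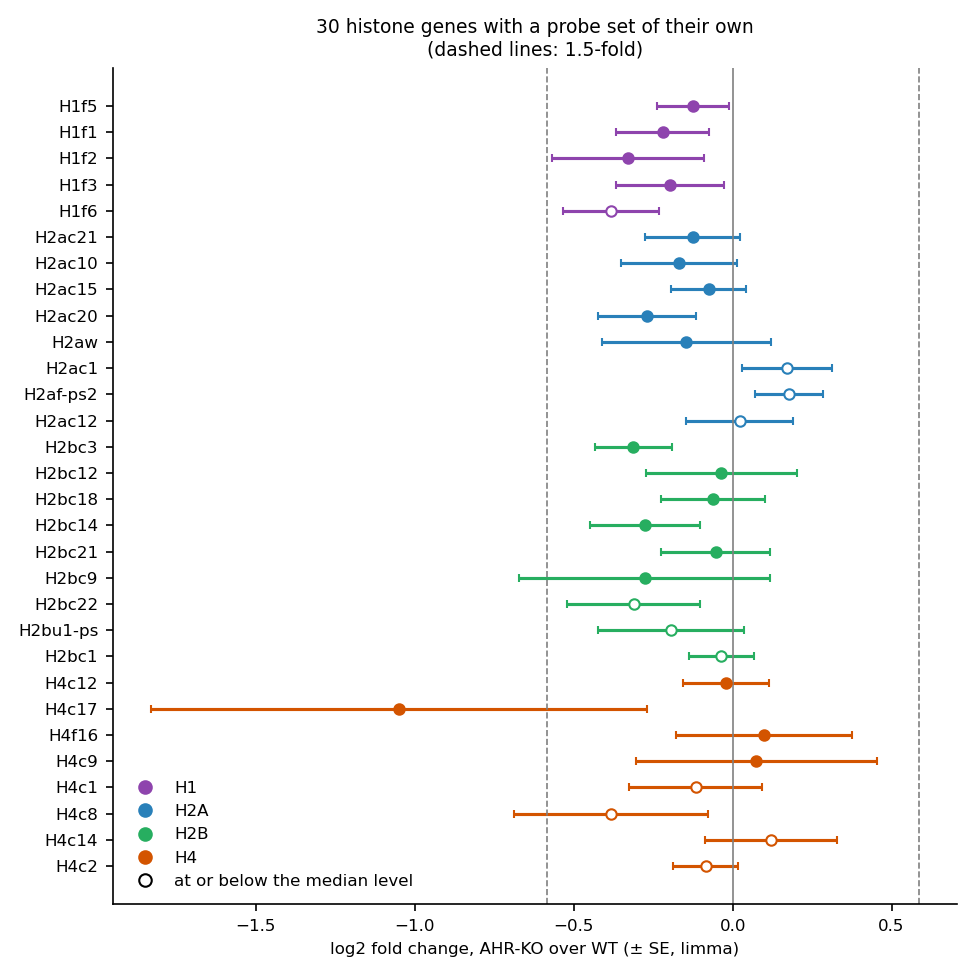
Log2 fold change of each of the 30 histone genes, AHR-KO over WT, with its standard error from limma (x axis), by histone type and in order of level within a type (y axis). Open circles are genes at or below the median level of all genes and dashed lines mark 1.5-fold. Points lie left of 0 for 24 genes, and the widest bar is that of H4c17.

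The linker histones, which bind DNA between nucleosomes, were lower in AHR-KO for 5 of 5 genes. H1f5 gave 11.66, 11.59, 11.95, 11.90 and 11.58 in AHR-KO arrays 1 to 5, against 11.86, 11.995, 11.74, 11.83 and 11.88 in WT arrays 1 to 5. AHR-KO 3 and 4 lay within the range of the WT arrays and the other AHR-KO arrays below all of them, with a log2 fold change of -0.12 (SE 0.11, p = 0.293, limma; exact permutation p = 0.183, two-sided). H1f1, another somatic linker histone, gave 9.89, 10.15, 10.11, 9.98 and 9.51 in AHR-KO arrays, against 10.38, 10.09, 9.97, 9.98 and 10.33 in WT arrays. The lowest array was AHR-KO 5, AHR-KO 1 also lay below all WT arrays, and the highest were WT 1 and WT 5. The other values overlapped. H1f2 gave 9.58, 9.99, 9.50, 9.59 and 8.62 in AHR-KO arrays, against 10.09, 9.24, 9.71, 10.00 and 9.89 in WT arrays. AHR-KO 5 again stood below the rest. The log2 fold changes of H1f1, H1f2 and H1f3, at -0.22 (SE 0.15), -0.33 (SE 0.24) and -0.20 (SE 0.17), all had an unadjusted p above 0.05, and without AHR-KO 5 those of H1f1 and H1f2 were both -0.12.

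H1f6, the linker histone H1t of spermatocytes, was the only member whose groups did not overlap. It gave 4.73, 4.25, 4.84, 4.82 and 4.68 in AHR-KO arrays, against 5.40, 4.88, 4.85, 5.14 and 4.95 in WT arrays. Groups did not overlap, with AHR-KO lower, for 0.334% of all genes. All AHR-KO values lay below all WT values, by 0.01 between the nearest ones, and the log2 fold change was -0.38 (SE 0.15, p = 0.0264, limma; exact permutation p = 0.00794, the smallest that 5 against 5 arrays allow). The mean signals were 9.60 in AHR-KO arrays and 17.4 in WT arrays, both under the median signal of 24.7, where the added 16 makes up much of the value, and no background measurement is in the values. The adjusted p was 0.998. The log2 fold change was -0.87 with a pseudocount of 1 and -0.85 from linear means, both past the study threshold.

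Of the H2A core histone genes, the 5 above the median level were lower in AHR-KO, with log2 fold changes of -0.27 to -0.08, and the 3 below it, H2ac1, H2ac12 and H2af-ps2, were higher, by 0.17, 0.02 and 0.18. H2ac21, a Hist2 gene, gave 10.83, 10.39, 10.65, 10.48 and 10.16 in AHR-KO arrays, against 10.73, 10.43, 10.60, 10.45 and 10.93 in WT arrays. AHR-KO 5 was lowest and WT 5 highest, the other 8 arrays were interleaved, and without AHR-KO 5 the log2 fold change was -0.04. A second probe set of H2ac21 gave -0.21 (SE 0.19), against -0.13 (SE 0.15) for the one used. H2ac10 gave 10.52, 10.79, 10.35, 10.14 and 9.81 in AHR-KO arrays, against 10.64, 10.28, 10.39, 10.33 and 10.83 in WT arrays. AHR-KO 5 and 4 were the lowest arrays, AHR-KO 2 was second only to WT 5, and the log2 fold change of -0.17 was -0.04 without AHR-KO 5. H2ac20 had the largest difference of the type, with means of 8.82 ± 0.21 in AHR-KO and 9.09 ± 0.27 in WT arrays (SD, n = 5 each) and a log2 fold change of -0.27 (SE 0.15, p = 0.105, limma; exact permutation p = 0.119, two-sided).

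The Hist3 gene H2aw gave 4.76, 5.80, 5.83, 5.89 and 5.89 in AHR-KO arrays, against 6.12, 6.17, 5.78, 5.83 and 4.99 in WT arrays. Its lowest values were in AHR-KO 1 and WT 5, 1 array of each group, and its log2 fold change of -0.15 (SE 0.27) turned to 0.07 without AHR-KO 1. H2ac15 had -0.08 (SE 0.12). H2ac1, which encodes a testis H2A, gave 4.39 to 4.87 in AHR-KO arrays and 4.05 to 4.64 in WT arrays, near the lowest value the scale can take.

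H2B genes were lower in AHR-KO for 9 of 9, with log2 fold changes of -0.31 to -0.04. H2bc3 had the smallest p of the 30. It gave 9.52, 9.52, 9.17, 9.09 and 9.40 in AHR-KO arrays, against 9.64, 9.82, 9.65, 9.51 and 9.65 in WT arrays. The groups met only at WT 4, which lay just under AHR-KO 1 and 2, and the log2 fold change was -0.31 (SE 0.12, p = 0.0240, limma; exact permutation p = 0.0238, two-sided; adjusted p = 0.998). In H2bc3 the lowest array was AHR-KO 4 and not AHR-KO 5.

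Other H2B genes had larger spread. H2bc12 gave 9.24, 9.32, 9.17, 9.34 and 8.56 in AHR-KO arrays, against 9.50, 9.48, 9.37, 9.18 and 8.28 in WT arrays. A single array stood low in each group, AHR-KO 5 and WT 5, and the log2 fold change of -0.04 (SE 0.24) turned to 0.11 without the first of them. H2bc9 gave 5.66, 6.40, 5.72, 5.07 and 5.01 in AHR-KO arrays, against 6.21, 5.34, 5.07, 5.39 and 7.22 in WT arrays. The highest value was that of WT 5, without which the log2 fold change of -0.28 (SE 0.40) turned to 0.07. H2bc14 had -0.28 (SE 0.17), and H2bc22, which lay below the median level of all genes, had -0.31 (SE 0.21). H2bc21, known in mouse as the H2BE variant of olfactory neurons, had -0.05 (SE 0.17). H2bc18 and the pseudogene H2bu1-ps had -0.06 (SE 0.16) and -0.19 (SE 0.23). The testis gene H2bc1 was at most 4.13 in AHR-KO arrays and 4.29 in WT arrays, at or next to the lowest value of the scale.

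**Figure D2:**
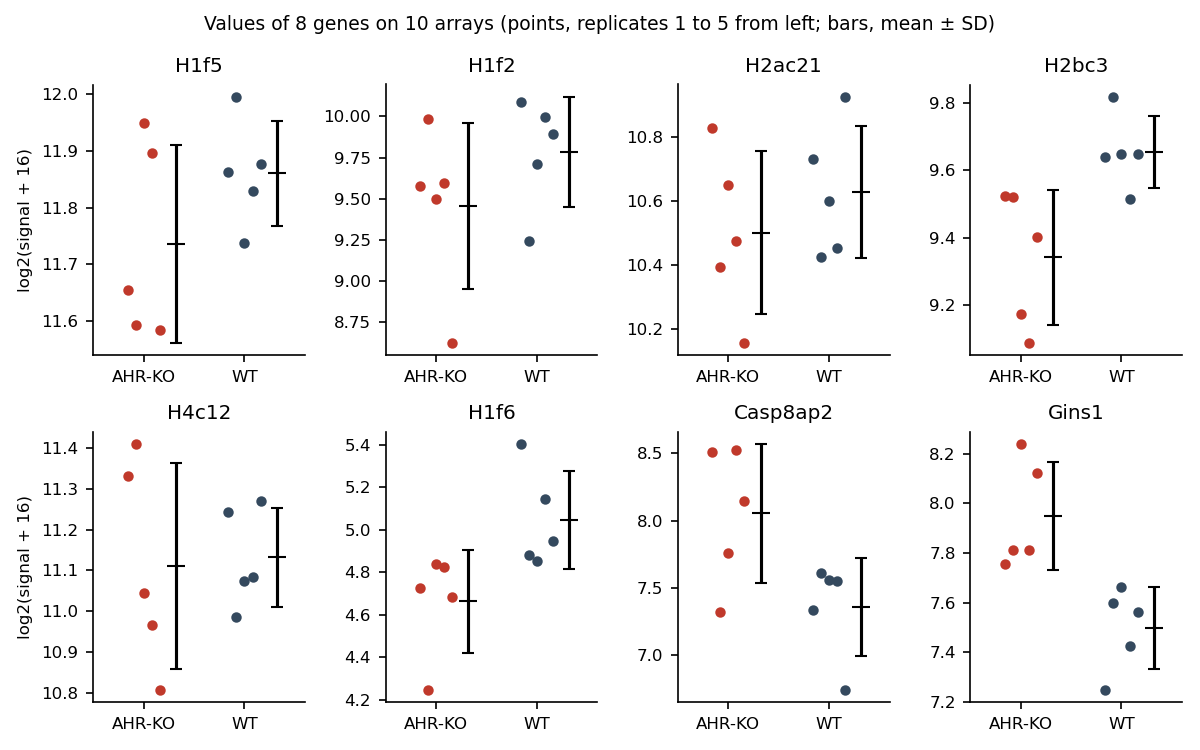
Values on the log2(signal + 16) scale (y axis, a range of its own for each gene, not starting at 0) of 6 histone genes and of Casp8ap2 and Gins1 in AHR-KO and WT arrays. Points are single arrays and bars are means ± SD (n = 5 each). H1f6 and Gins1 are the 2 of these 8 genes whose groups do not overlap.

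Among H4 genes, 5 of 8 were lower in AHR-KO and 3 were higher. H4c12, whose GGTCCG and TATAAA elements are printed above, gave 11.33, 11.41, 11.04, 10.97 and 10.81 in AHR-KO arrays, against 11.24, 10.99, 11.07, 11.09 and 11.27 in WT arrays. AHR-KO arrays held both the 2 highest and the 2 lowest values, and the log2 fold change was -0.02 (SE 0.13). H4c9 gave 7.83, 8.10, 6.78, 6.63 and 6.20 in AHR-KO arrays, against 7.55, 7.44, 7.17, 6.90 and 6.10 in WT arrays. Its SD over the 10 arrays was 0.67 and its log2 fold change 0.07 (SE 0.38). H4f16, the gene of the Hist4 locus, gave 8.98, 9.51, 8.56, 8.29 and 7.75 in AHR-KO arrays, against 8.65, 8.58, 8.32, 8.23 and 8.83 in WT arrays. In H4f16 and H4c9 AHR-KO 1 and 2 were the highest arrays, and H4f16 had a log2 fold change of 0.10 (SE 0.28) and 0.11 (SE 0.21) on its 2 probe sets. The 4 H4 genes at or below the median level, H4c1, H4c2, H4c8 and H4c14, had -0.12 (SE 0.21), -0.08 (SE 0.10), -0.38 (SE 0.31) and 0.12 (SE 0.21).

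H4c17 held the value that stood farthest from the others. It gave 8.57, 8.72, 8.33, 8.01 and 8.02 in AHR-KO arrays, against 8.74, 8.28, 8.51, 8.29 and 13.09 in WT arrays. Without WT 5 the groups overlapped, at 8.33 ± 0.32 in AHR-KO arrays (SD, n = 5) and 8.45 ± 0.22 in the other WT arrays (n = 4). The signal of 8702 in WT 5 was 21.2 times that of the next array, and the log2 gap of 4.35 was matched or exceeded by 4 of 22184 genes, H4c17 among them. The log2 fold change of -1.05 (SE 0.78, p = 0.203, limma; exact permutation p = 0.270, two-sided) became -0.12 without WT 5. No other H4 probe set, alone or shared, was raised in WT 5 in this way. Of the nearest genes on chromosome 13, H2bc22 was highest in WT 5, at 6.28, next to 5.93 in AHR-KO 1. H2ac15 was also highest in WT 5, at 10.31, next to 10.19 in AHR-KO 1. In the other neighbors WT 5 was not the highest array. The microRNA gene Mir1983 was at 4.55 in WT 5, within its range of 4.44 to 4.94.

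**Figure D3:**
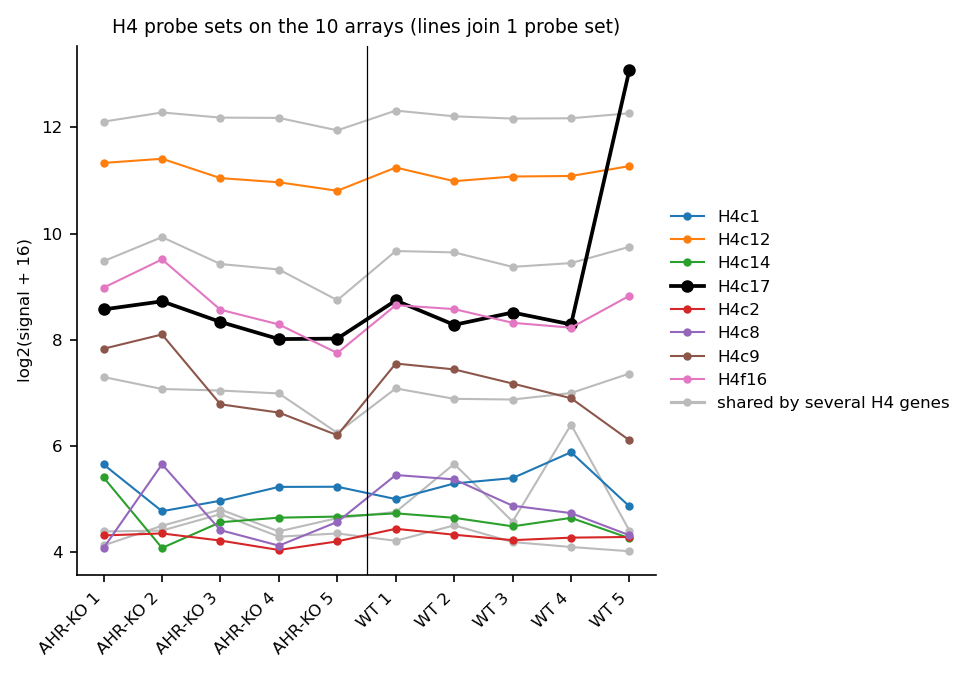
Values of 8 H4 genes and of 5 probe sets shared by several H4 genes (gray) on the log2(signal + 16) scale (y axis) in the 5 AHR-KO and 5 WT arrays (x axis). H4c17 is at 13.09 in WT 5 and between 8.01 and 8.74 in the other 9 arrays.

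Probe sets shared by 2 to 13 histone genes gave 35 distinct profiles, which cannot be assigned to single genes. AHR-KO was lower in 31 of the 35, against 50% of all probe sets, with a median log2 fold change of -0.15. These were 9 of 9 for H2A, 6 of 8 for H2B, 11 of 12 for H3, 4 of 5 for H4 and the 1 that mixes H1 and H2B. The lower count was 24 of 35 without AHR-KO 5, with a median of -0.05. Past the study threshold were 2 of the 35, both lower, where 0.385% of all probe sets were lower past it. An H2B probe set of 2 genes, H2bu2 and the pseudogene H2bu1-ps, gave 4.32, 4.06, 4.96, 4.56 and 5.16 in AHR-KO arrays, against 6.49, 6.08, 5.68, 4.92 and 5.19 in WT arrays. AHR-KO 3 and 5 lay above WT 4 and the other AHR-KO arrays below all WT arrays, and the log2 fold change was -1.06 (SE 0.31, p = 0.00538, limma; exact permutation p = 0.0317, two-sided). On its own probe set, H2bu1-ps had a log2 fold change of -0.19. The shared probe set had a mean value of 5.14, below the median of 5.33 for all probe sets, where the added 16 makes up much of the value.

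The other was an H3 probe set of 8 genes, with 5.39, 6.57, 5.97, 5.64 and 6.23 in AHR-KO arrays, against 6.17, 7.37, 6.43, 6.40 and 6.49 in WT arrays. AHR-KO 2 lay above every WT array but WT 2, and the log2 fold change was -0.61 (SE 0.26, p = 0.0385, limma; exact permutation p = 0.0714, two-sided). Another 7 shared probe sets, with mean values above 11 and from each of the 4 core types, had log2 fold changes of -0.25 to 0.05.

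The spread of the histone genes between arrays was close to that of other genes. Their SD over the 10 arrays had a median of 0.29, against 0.26 for all genes and 0.30 for all genes above the median level. It ran from 0.10 for H2bc1 to 1.51 for H4c17, and by type the medians were 0.28 for H1, 0.25 for H2A, 0.31 for H2B and 0.41 for H4. Single arrays stood out across the genes. AHR-KO 5 was above a gene's mean for 1 of the 19 histone genes above the median level, H2aw, and was the lowest of the 10 arrays for 12 of them, while 51.8% of all genes above that level were above their mean in it. WT 1 was above the mean for 17 of 19 histone genes, WT 5 for 15 and AHR-KO 2 for 14. In these arrays 52.8%, 48.9% and 52.1% of all genes above that level were above their mean. Of 24 shared probe sets above the median level of all probe sets, AHR-KO 5 was above the mean for 0 and lowest for 18. Many of these probe sets name the same genes.

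**Figure D4:**
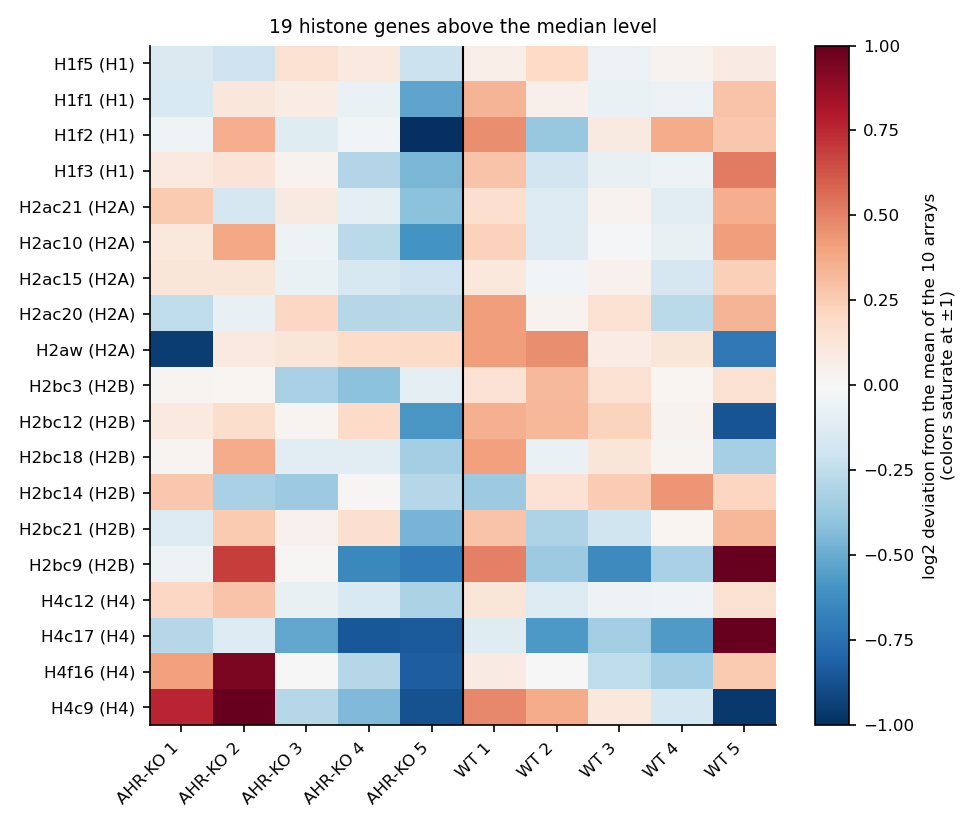
Log2 deviation from the mean of the 10 arrays (color, saturated at ±1) for the 19 histone genes above the median level (rows, by type) in the 5 AHR-KO and 5 WT arrays (columns, divided by a line). The column of AHR-KO 5 is below the mean in 18 of 19 genes, and that of WT 1 is above it in 17.

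The histone score of an array was taken over the 19 histone genes above the median level, leaving out H4c17. It was 0.04, 0.23, -0.04, -0.14 and -0.44 in AHR-KO arrays 1 to 5, against 0.25, 0.01, -0.01, -0.03 and 0.13 in WT arrays 1 to 5. AHR-KO 3, 4 and 5 lay below all WT arrays, AHR-KO 3 only just, and AHR-KO 1 and 2 were in their range. AHR-KO 5 also had the lowest HSC score, at -0.67, and the highest score of G2 and mitosis genes, at 0.46. Its S-phase score of 0.09 was below only those of AHR-KO 3 (0.14) and WT 1 (0.13), and the lowest was -0.16 in WT 4. Over all arrays, 11 of the 12 HSC markers had a lower mean in AHR-KO, none past the threshold. Of 10 mast cell and basophil markers, 7 had a lower mean in AHR-KO (median -0.23). Mcpt8, Cpa3 and Prss34 were lower past the threshold, as were 0.343% of all genes. The mast cell and basophil score was -0.81 to 0.21 in AHR-KO arrays and -0.23 to 0.46 in WT arrays. Of 8 erythroid markers, 7 had a higher mean in AHR-KO (median 0.50), none past the threshold, with scores of -0.25 to 1.12 in AHR-KO arrays and -0.95 to 0.83 in WT arrays. Markers of neutrophils, monocytes and dendritic cells, B cells, T and NK cells and megakaryocytes had medians of -0.09 to 0.30, none past the threshold. The part of these values in the histone scores was not tested. The first principal component, computed without the histone genes, held 30.6% of the variance and set AHR-KO 1 and 2 with WT 1 and 5 apart from the other 6 arrays. Histone scores were 0.04 to 0.25 in those 4 arrays and -0.44 to 0.01 in the other 6. HSC, neutrophil, and monocyte and dendritic scores also split these sets without overlap, the HSC score only just. HSC scores of the 4 arrays spanned 0.06 to 0.51, against -0.67 to 0.05 for the 6. Neutrophil scores spanned -1.55 to -0.41 against -0.14 to 1.84, in the same order. Monocyte and dendritic scores spanned -1.12 to -0.15 against 0.15 to 0.55. Scores of the other marker lists overlapped. A link of the histone split to cell composition was not tested. Within the 4 arrays, AHR-KO was lower for 19 of the 30 genes (median -0.08), and within the 6 arrays for 24 (median -0.13).

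**Figure D5:**
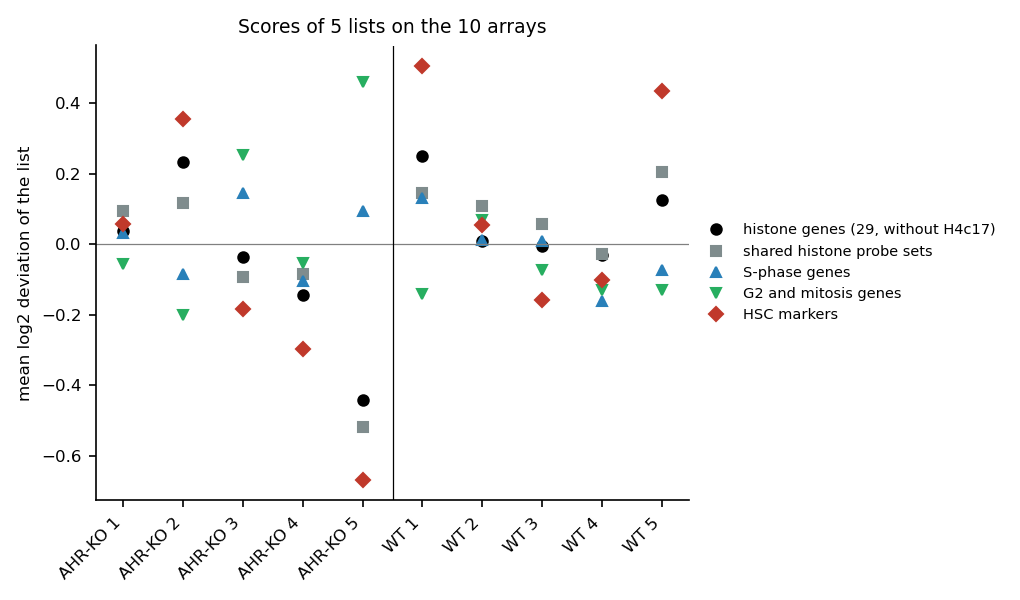
Score of 5 lists, the mean log2 deviation of the list's genes from their means over the 10 arrays (y axis), in the 5 AHR-KO and 5 WT arrays (x axis). The histone scores use only genes or shared probe sets above the median level. The score of histone genes leaves out H4c17 and holds fewer genes than its label counts. AHR-KO 5 has the lowest histone score, at -0.44, the lowest HSC score and the highest score of G2 and mitosis genes, at 0.46.

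Lists of genes for histone transcription, processing, decay, chaperones, variants and the cell cycle held 99 measured genes. Of these, 65 were higher in AHR-KO, as were 11333 of all 22184 genes and 5784 of the 11092 genes above the median level. Only 1 of the 99 passed the study threshold, in the direction in which 0.18% of all genes did. That gene was Casp8ap2, which encodes FLASH, the histone locus body protein that acts with LSM11 in processing histone pre-mRNA. It gave 8.51, 7.32, 7.76, 8.53 and 8.15 in AHR-KO arrays, against 7.33, 7.61, 7.56, 7.55 and 6.74 in WT arrays. It was higher than all WT arrays in 4 of 5 AHR-KO arrays, with means of 8.05 ± 0.52 in AHR-KO and 7.36 ± 0.36 in WT (SD, n = 5 each) and a 1.62-fold change (log2 0.70, SE 0.25, p = 0.0161, limma; adjusted p = 0.998; exact permutation p = 0.0635, two-sided). Without WT 5 the log2 fold change was 0.54, without AHR-KO 1 it was 0.58 and without AHR-KO 4 it was also 0.58, each under 1.5-fold. The other 4 genes of the transcription list were lower in AHR-KO, among them Npat at -0.05 (SE 0.17) and Hinfp, which encodes the factor of the H4 element, at -0.34 (SE 0.19), neither past the threshold.

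In the processing list 6 of 10 genes were higher in AHR-KO, and Cpsf2, a subunit of the cleavage complex, had the smallest p of the list (log2 fold change 0.26, SE 0.13, p = 0.0810, limma; exact permutation p = 0.0714). Slbp had -0.06 (SE 0.12) and Lsm11 0.24 (SE 0.23). Genes of histone mRNA decay were higher for 7 of 7, with a median of 0.10, and none had an unadjusted p under 0.05. Lsm1, of the ring that starts decay, had 0.32 (SE 0.27). Histone chaperones, which carry histones to DNA, were higher for 11 of 15 with a median of 0.08. Chaf1b, a subunit of the chromatin assembly factor CAF-1, had 0.29 (SE 0.16), and Nasp had -0.003 (SE 0.23).

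Genes on the list of replication-independent variants were higher for 4 of 8 and lower for 4 of 8. H2az2 had -0.30 (SE 0.16) and H2ax, the variant phosphorylated at DNA breaks, had -0.05 (SE 0.11), with 11.76 in AHR-KO 5 and 12.03 to 12.23 in the other 9 arrays. Testis variants outside the 30 genes were higher for 2 of 4, with 0.27 (SE 0.16) for Hils1 of spermatids. Genes of S phase were higher in AHR-KO for 17 of 28 with a median of 0.05. Gins1, a subunit of the GINS complex of the replicative helicase, gave 7.76, 7.81, 8.24, 7.81 and 8.12 in AHR-KO arrays, against 7.25, 7.60, 7.66, 7.43 and 7.56 in WT arrays. All AHR-KO arrays lay above all WT arrays, at a log2 fold change of 0.45 (SE 0.13, p = 0.00567, limma; exact permutation p = 0.00794), under 1.5-fold, where 0.347% of all genes had AHR-KO above WT without overlap. Genes of G2 and mitosis were higher for 17 of 22 with a median of 0.19, and none had an unadjusted p under 0.05. Mki67, a marker of cycling cells, averaged 9.99 ± 0.18 in AHR-KO and 9.76 ± 0.11 in WT arrays (SD, n = 5 each; log2 fold change 0.23, SE 0.12, p = 0.0747, limma; exact permutation p = 0.0476, two-sided), and Cenpe, a kinetochore motor, had 0.41 (SE 0.19).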

How the data were processed

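Per the submitters' processing notes, Affymetrix Expression Console made the values, and the deposited unit is a linear intensity for every probe set on each of 10 arrays. IterPLIER with subtraction of background and quantile normalization is described in the study's methods, though not for these arrays by name, and the version of the software is not given in the sources used here. All 10 arrays have a median intensity of 24.7. Quantile normalization can hide a change shared by most genes. Precision is limited by the number of arrays, and there is no depth to give.

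Values were put on the scale log2(signal + 16). Of 41345 probe sets, the platform annotation tied 23525 to 1 gene symbol and 1816 to more than 1, which named no gene here, and left 16004 unnamed. The brightest probe set (highest mean) stood for each of 1082 genes with several, and none of the resulting 22184 genes was filtered out. AHR-KO was compared with WT by limma (version 3.58.1, functions lmFit and eBayes, R 4.3.3), p-values were adjusted over all genes by the Benjamini-Hochberg method, and single genes were also tested by exact permutation of arrays. The fit was tested on simulated data. Members, gene lists, alternatives and naming rule were chosen with earlier results of these data known. The rule names the 2 genes of highest mean and the 1 of largest SD in each histone type, the 3 highest and 3 lowest log2 fold changes above the median level (of which only 2 were above 0), any member past the study threshold, the testis members, Ahr, in each related list the genes past that threshold or else the smallest p, and Slbp, Npat, Casp8ap2, Hinfp, Lsm11, Nasp, H2ax, Mki67 and H3f3b, the last of which had no probe set of its own. The other 14 members, H2ac14, H2bu2, Mir1983, Mcpt8, Cpa3, Prss34 and 2 shared probe sets were named after their values were seen. Alternatives covered the pseudocount, the level filter, the choice of probe sets, array alignment, blocks, other spread models and tests, and each array left out. Promoter positions and chromosomes come from the GRCm38.p6 tables, and no probe set is given a position, as no build is stated for the array.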

Additional observations from a re-analysis of the deposited data

Results flagged for a closer look

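In 7 of 70 groups of 5 arrays examined for an array standing apart from the other 4 of its group (the 32 named genes and 3 histone scores in each group), the gap to the nearest array took up more of the range than the critical value of 0.71. Chance alone marks about 1 in 20 independent groups, a share that cannot be set against this count, since H2aw and H4c17 were among the genes named for their large SD, the groups come from the same arrays and H2bc1 lies at the lowest value of the scale. In AHR-KO arrays, H2aw was at 4.76 in AHR-KO 1 and 5.80 to 5.89 in the others, H2bc12 was at 8.56 in AHR-KO 5 and 9.17 to 9.34 in the others, H1f6 was at 4.25 in AHR-KO 2 and 4.68 to 4.84 in the others, and H2bc1 was at 4.13 in AHR-KO 1 and at the lowest value of the scale in the others. In WT arrays the 3 values all came from WT 5, which was at 13.09 for H4c17 (8.28 to 8.74 in the others), at 8.28 for H2bc12 (9.18 to 9.50 in the others) and at 4.29 for H2bc1 (at most 4.02 in the others).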

How the results depend on the processing

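AHR-KO had the lower mean for most of the histone genes tested under each alternative run, and the median log2 fold change stayed below 0, at -0.21 to -0.08. It was -0.17 to -0.08 with single arrays left out, when 20 to 27 genes were lower and 0 to 1 passed the study threshold (H4c8 without AHR-KO 2). Histone genes past the threshold were 2 with a pseudocount of 1 (H1f6 and H2af-ps2), 2 within the 6 arrays that the first principal component set together (H4c8 and H4c9), 1 with the fold from linear means (H1f6) and 2 among all probe sets, the shared ones given above, where 56 of 67 were lower in AHR-KO. All genes past the threshold were 574 with a pseudocount of 1, 16 with 64, 71 of those above the median level, 282 among all probe sets (1 of them, with no gene symbol, at an adjusted p under 0.05), 845 within the 4 arrays set together, 331 within the other 6, 75 by the methods' t-test, 429 with the fold from linear means and 99 to 230 with an array left out.

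The replicate number as a block gave 153 genes past the threshold, 61 of them higher, with 0 histone genes. Deviations of arrays with equal numbers correlated at -0.20 to 0.35, and not each pair was above 0.1, so that the numbers were not taken as pairs.

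Log2 fold changes that changed sign were those of Nasp with a pseudocount of 64 (0.00341), within the 6 arrays (0.24), with array weights (0.12) and from linear means (0.0592), Npat within the 6 arrays (0.15) and with array weights (0.0633), H4c9 within the 6 arrays (-0.63) and with array weights (-0.31), H4f16 (-0.17) and Lsm11 (-0.0282) within the 6 arrays, and H2bc12 (0.39), H4c12 (0.11), Ahr (-0.0918) and Slbp (0.0780) within the 4 arrays. Their causes were not tested. With single arrays left out, the sign also changed for H2bc12 (-0.256 to 0.105), H4c12 (-0.0954 to 0.0554), H2aw (-0.342 to 0.0736), H2bc9 (-0.485 to 0.0669), H2bc1 (-0.0630 to 0.0212), H4f16 (-0.125 to 0.316), H4c9 (-0.173 to 0.301), Npat (-0.125 to 0.0703), Nasp (-0.137 to 0.212), Slbp (-0.110 to 0.0148), H2ax (-0.0946 to 0.0225) and Ahr (-0.0307 to 0.490). Lower by over 1.5 times in size without 1 array were also Lsm1 (0.07 without AHR-KO 1), Hinfp (-0.22 without AHR-KO 1), Lsm11 (0.06 without WT 1), H2ac1 (0.08 without WT 1), Hils1 (0.17 without WT 2) and Chaf1b (0.15 without WT 5). Casp8ap2 was higher in AHR-KO under each alternative, at 0.54 to 0.88, and missed the threshold with a pseudocount of 64, within either array set, with array weights and in 3 of the 10 fits with an array left out. Aligning array medians moved nothing, as they are equal. Signals near the added 16 limit the H2B probe set past the threshold and most H3 probe sets. They also limit H1f6, H2ac1, H2ac12, H2af-ps2, H2bc1, H2bc22, H2bu1-ps, H4c1, H4c2, H4c8 and H4c14.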
